A study of Danio rerio with 12 samples.

Results

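The proteasome genes were read on zebrafish pineal gland arrays as the probe sets whose platform annotation gives exactly 1 symbol starting with psma, psmb, psmc, psmd, psme, psmf or psmg, with a mean deposited signal of at least 58 over the 12 arrays. The symbol pattern found 57 probe sets of 49 genes, and 49 probe sets of 45 genes passed the signal threshold, out of 15502 probe sets on the array that are not controls. The rule used the mean level only, not the difference between treatments or times. The members were grouped as core (psma and psmb, 17 probe sets of 17 genes), base and lid (psmc and psmd, 24 probe sets of 21 genes) and activators or assembly factors (psme, psmf and psmg, 8 probe sets of 7 genes). By its symbols the base and lid group also holds psmd5, psmd9 and psmd10, which are described below as assembly factors. Nearest above the threshold lay psmb8a (mean signal 66.7), whose mean over the dark arrays alone lay below it, and psmb13a (68.2). Nearest below it lay psmb9a (57.6) and psmb12 (52.8). The other 6 probe sets below it were psma6l, other probe sets of psmd9 and psmf1, 1 of psmc1b beside its 2 members, and 2 of psmc3ip. The protein psmc3ip is named for its binding to a base subunit and is not itself a subunit.

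The fish were adults of 0.5 to 1.5 years and both sexes of the transgenic strain Tg(aanat2:EGFP)Y8, reared in 12 h of light and 12 h of darkness and moved to constant darkness at the end of the day before sampling. In the light group (6 arrays) fish received a light pulse of 1 h, of 12 W/m2, that ended when the glands were taken, and in the dark group (6 arrays) fish stayed in darkness. Each array held RNA of 1 pool of 12 glands, and each treatment had 1 pool at circadian time (CT, hours counted from subjective dawn) 2, 6, 10, 14, 18 and 22. The transgene carries aanat2 regulatory regions, so every pool of both groups shares this insertion, and the fluorescence it gives served to find the gland.

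The proteasome degrades proteins tagged with ubiquitin. Its core is a barrel of alpha rings, which gate the entrance, around beta rings, which hold the cutting sites, and its cap is built from a base of ATPases that unfold the substrate and a lid that removes the ubiquitin chain. In the pineal gland it is known for the fast removal of AANAT protein, the enzyme that times melatonin synthesis, when light falls at night, and in vertebrate clocks for the turnover of PER and CRY proteins.

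The value analysed was log2(signal + 13) of the deposited MAS5 signal. Array medians lay between 82.8 and 99.5 in light and between 70.3 and 94.7 in dark. All 7 of the listed pineal markers found on the array had mean signals above the threshold, with aanat2 at 636 to 4681 in light and 586 to 2728 in dark pools. Light minus dark was positive in 4 of the 7, with a median of 0.30, and none was called for light in the first comparison below. The hybridisation spike-ins divide the arrays unevenly between the groups: their mean log2 signal was 10.3 to 11.2 on all 6 light arrays and the dark CT22 array, against 9.53 to 9.78 on the other 5 dark arrays. One alternative fit added this class of array and, in the same step, put cosine and sine terms of time in place of the pairing by time, and another added the spike-in level and kept the pairing. In pools of whole glands, fewer cells of a type and less RNA per cell cannot be told apart.

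The first comparison asks whether 1 h of light changed proteasome transcripts, over the 6 pairs of pools of equal circadian time. Averaged over the 6 pairs, proteasome transcripts as a group differed little between light and dark pools. At single times the median difference varied in sign, as given under the second comparison. Of the 49 probe sets, 27 had a positive averaged light-minus-dark difference and 22 a negative one. Their median log2 difference was 0.015, beside 0.022 over all 9301 probe sets tested, and their median absolute difference was 0.10, beside 0.19 over all. With limma and Benjamini-Hochberg adjustment over the 9301 probe sets, 1 of 49 members was called at an adjusted p under 0.05, the lid subunit psmd6, which fell. Over all probe sets 2.31% were called in either direction and 0.731% were called lower. At an unadjusted p under 0.05, 5 of 49 members (10.2%) stood beside 17.5% of all probe sets. These 5, and the 27 positive ones, include psmb8a, which passed the signal threshold only through its light arrays.

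In the paired fit without a spike-in term, most differences were bounded in size. For 48 of the 49 members the 95% interval of the light difference lay within a change of 2-fold in either direction. This held for 90.6% of all probe sets, and the exception was psmd3. The bound does not cover fits with a spike-in term, where some differences grew and others shrank. There psmb7 went from -0.24 ± 0.16 to -0.68 ± 0.25 (level), and the second psmd12 probe set from 0.25 ± 0.19 to 0.97 ± 0.35 (class, no pairing). The median SD over the 12 arrays was 0.27 for members and 0.34 over all probe sets on the log2 scale. One sign was kept at all 6 times by 3 of 49 members, beside 10.3% of all probe sets: psmd6 and psmb4 were lower in light and psmd10 was higher in light at 6 of 6 times.

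**Figure D1:**
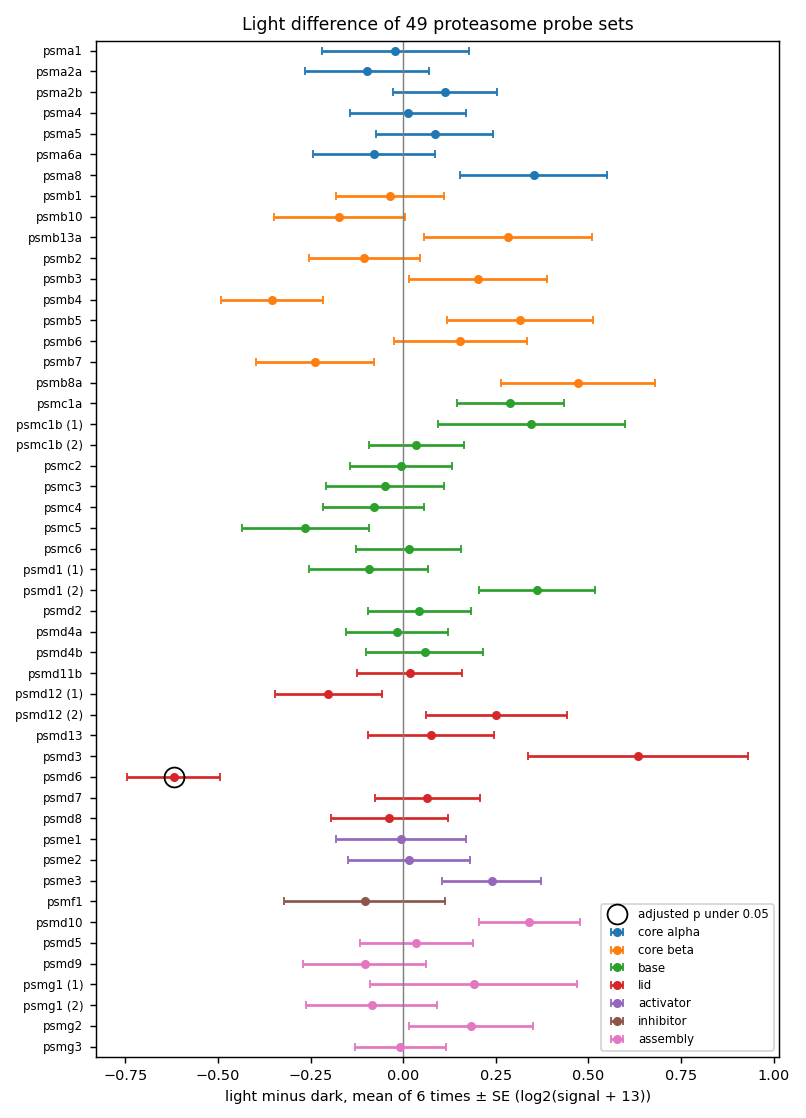
Light-minus-dark difference in log2(signal + 13) of each of the 49 member probe sets, as the mean of 6 circadian times with its SE, coloured by role; genes with 2 probe sets carry a number. Most points lie close to 0, and psmd6 at -0.62 is the only one with an adjusted p under 0.05.

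Among the 7 alpha subunits the differences ranged from -0.10 to 0.35, and none was called. The largest was that of psma8, an alpha-ring subunit. Its signals at CT2, 6, 10, 14, 18 and 22 were 426, 489.8, 531, 530.5, 411 and 397 in light, against 552, 291, 252, 295, 363 and 484 in dark. The light pools were higher at 4 middle times and lower at CT2 and CT22, and the groups overlapped (0.35 ± 0.20, SE, n = 6 pairs, adjusted p = 0.379). psma4 had 382 to 667 (median 549) in light and 471 to 579 (median 529) in dark, a difference of 0.01 ± 0.16. psma1, psma2a and psma6a had small negative differences (-0.02, -0.10 and -0.08) and psma2b and psma5 small positive ones (0.11 and 0.09), each below its SE of 0.14 to 0.20.

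The beta ring holds the 3 constitutive catalytic subunits, none of which was called and whose estimates differed in sign. psmb5, which carries the chymotrypsin-like site, had signals of 333, 280.3, 408, 332, 361 and 465 over the 6 times in light, against 488, 292, 338, 174, 170.1 and 374 in dark (0.32 ± 0.20, adjusted p = 0.428). psmb6, which carries the caspase-like site, had 347 to 505 (median 421) in light and 275 to 531 (median 374) in dark (0.15 ± 0.18, adjusted p = 0.691). psmb7, which carries the trypsin-like site, had 418 to 814 (median 644) in light and 533 to 970.2 (median 783) in dark (-0.24 ± 0.16, adjusted p = 0.462). In all 3 the groups overlapped, and all 3 signs turned in an alternative fit, psmb6 to -0.36 and psmb7 to 0.10 with the spike-in class and psmb5 to -0.14 with the spike-in level.

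Of the non-catalytic beta subunits, psmb4 had the lowest light difference of the core. Its signals were 533, 414, 358, 383, 539 and 414 in light, against 581, 675, 504, 555, 540.4 and 517 in dark. Light was lower in 6 of 6 pairs, by almost nothing at CT18, and the highest light pools lay among the dark values (-0.35 ± 0.14, adjusted p = 0.212). psmb1, psmb2 and psmb3 had differences of -0.04, -0.11 and 0.20, none of them called.

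The inducible beta subunits replace the constitutive catalytic ones in the immunoproteasome of mammals. Of these psmb8a and psmb10 were members, psmb9a fell just below the signal threshold, and psmb13a, a further beta subunit gene, was grouped with them. psmb8a, the counterpart of psmb5, had signals of 81.6, 92.5, 86.9, 74.0, 62.4 and 75.2 in light, against 38.9, 72.4, 37.8, 45.3, 52.7 and 81.1 in dark. Light was higher at every time but CT22 (0.47 ± 0.21, 95% interval 0.02 to 0.92, adjusted p = 0.268), at signals close to the threshold of 58. Its mean over the dark arrays alone lay below that threshold, so it is a member only through its light values. Its difference is therefore no evidence of a light response. The sign of psmb8a turned with the spike-in class in the model (-0.12). psmb10, the counterpart of psmb7, had 228 to 547 (median 381) in light and 332 to 460 (median 421) in dark (-0.17 ± 0.18, adjusted p = 0.646). Leukocyte markers are given beside them because leukocytes carry immunoproteasome. Of 11 on the array, 3 lay below the signal filter. All 8 tested markers had a positive light difference, with a median of 0.35 and none called. The summed signal of these leukocyte markers was 2512 to 6670.4 in light and 2300.3 to 5029 in dark pools. Most of this sum came from cd74a and cd74b (mean signals 2241 and 790), whose light differences were 0.10 and 0.04. The other tested markers had mean signals of 69.6 to 189. The part of the leukocyte markers in the psmb8a values was not tested.

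The base holds 6 ATPase subunits and the large scaffold and ubiquitin-binding subunits. None of its 13 probe sets was called, and 7 were positive. psmc1a, an ATPase, had 318 to 429 (median 369.5) in light and 243 to 366 (median 299) in dark (0.29 ± 0.14, adjusted p = 0.325). psmc5, another ATPase, had 378 to 664 (median 488) in light and 438 to 767 (median 630) in dark (-0.26 ± 0.17, adjusted p = 0.445). The ATPases psmc2, psmc3, psmc4 and psmc6 had differences of -0.01, -0.05, -0.08 and 0.01, the scaffold psmd2 had 0.04, and the ubiquitin receptors psmd4a and psmd4b had -0.02 and 0.06.

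For 4 genes a pair of probe sets were members. The first and second probe sets of psmd1, the other scaffold, gave -0.09 ± 0.16 and 0.36 ± 0.16, and those of the ATPase psmc1b gave 0.35 ± 0.25 and 0.04 ± 0.13. Those of the lid subunit psmd12 gave -0.20 ± 0.14 and 0.25 ± 0.19, and those of the assembly chaperone psmg1 gave 0.19 ± 0.28 and -0.09 ± 0.18. In 3 of these 4 genes the probe sets differed in sign, and none of the 8 values was called. Why they differed was not tested.

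The lid held both the lowest and the highest light difference of all members. psmd6, the vertebrate form of yeast Rpn7 and a structural lid subunit, had signals of 593, 561, 575, 571, 576 and 435 in light at CT2 to CT22, against 774, 964, 966, 969, 896 and 603 in dark. The light values of CT2 to CT18 lay within a narrow band, the lowest value of each group was that of CT22, and the groups did not overlap, which held for 1.23% of all probe sets and for 1 of 49 members. The log2 difference was -0.62 ± 0.13 (SE, n = 6 pairs, 95% interval -0.89 to -0.35), a signal 1.54-fold higher in dark, with a limma adjusted p of 0.0275.

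The psmd6 call was lost in several other fits. Without the pair at CT6, CT10, CT14 or CT18 the difference was -0.59 to -0.62 and the adjusted p 0.101, 0.127, 0.0752 and 0.0633, and without the intensity trend it was 0.0508. With the spike-in level added to the paired fit the difference was -0.45 ± 0.22 (adjusted p = 0.518). With the spike-in class, in the fit that also dropped the pairing, it was -0.27 ± 0.24 (adjusted p = 0.988). Dropping the pairing alone, with no term for time or spike-ins, left -0.62 ± 0.14 (adjusted p = 0.0456). CT22 is the only time with both arrays in 1 class, and there the log2 difference of psmd6 was -0.46. That value rests on the light CT22 array (signal 435), which stood apart from the other light arrays (561 to 593). The dark CT22 signal (603) lay just above those light arrays and below all other dark arrays. The higher class holds only 1 dark array, so that a fit within it, which gave -0.25 for psmd6, has little power for a call. The 3' GAPDH probe set, which reads a transcript of the gland RNA and not a spike-in, moved with the same split. It lay at 11.5 to 12.4 on the light arrays and 11.9 on dark CT22, against 12.5 to 12.9 on the other dark arrays. The part of this array difference in the psmd6 result was not tested.

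psmd3, another structural lid subunit, had the highest difference over the 6 pairs. Its signals were 146, 173, 205, 175, 228 and 232 in light, against 214, 121, 33.6, 67.8, 135 and 290.3 in dark. The light pools spanned a small part of the dark range, and dark lay above light at CT2 and CT22 and below it at the 4 times between (0.63 ± 0.30, adjusted p = 0.292). Without the CT10 pair, which holds the lowest dark value, it was 0.32, below that of the first psmg1 probe set in the same fit (0.47), and over all left-out pairs it was 0.32 to 0.86. The sign of this mean difference turned with the spike-in class (-0.09) or level (-0.28) in the model. The lid subunits psmd7, psmd8, psmd11b and psmd13 had differences of 0.07, -0.04, 0.02 and 0.07.

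The activators open the gate of the core from outside, and none of the 3 was called. psme1 and psme2, which form the PA28 ring, had differences of -0.01 ± 0.18 and 0.02 ± 0.16. psme3, which forms the nuclear PA28 gamma ring, had 408 to 645 (median 479) in light and 370.3 to 528 (median 411) in dark (0.24 ± 0.13, adjusted p = 0.375). psmf1, an inhibitor of the core in vitro, had 246 to 509 (median 409) in light and 246 to 575 (median 440.3) in dark (-0.10 ± 0.22).

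Among the assembly factors psmd10, the base chaperone also called gankyrin, was higher in light in 6 of 6 pairs. Its signals were 329.7, 297, 263, 305, 284 and 329 in light, against 232, 247, 226, 189.8, 215 and 313 in dark. Every light value lay above 5 of the 6 dark values (0.34 ± 0.14, adjusted p = 0.228). Dark CT22, the dark array with the spike-in class of the light arrays, lay inside the light range. With the spike-in class and no pairing the psmd10 difference was 0.01 ± 0.24, and with the spike-in level 0.12 ± 0.23. The base chaperones psmd5 and psmd9 had 0.04 and -0.10, and the core chaperones psmg2 and psmg3 had 0.18 and -0.01.

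The second comparison asks whether the light difference changed over the circadian cycle, with cosine and sine terms of a 24 h period for each treatment. No member was called, and 0.0% of all 9301 probe sets were called (smallest adjusted p 0.386 over all and 0.463 over members). In simulated data this fit recovered 0.5% of light-by-time effects with an amplitude of 1 log2. The lack of calls therefore cannot speak to effects of that size or smaller. At an unadjusted p under 0.05 there were 7 of 49 members (14.3%), beside 9.29% of all probe sets. They were psmd3, psma8, psmb3, psmb6, psmb5, psma4 and psmf1, of which 5 belong to the 17 core genes, with amplitudes of the light-by-time term between 0.48 and 1.23. Without the CT2 pair the count was 4, and without the CT22 pair 9.

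The members' light differences followed the time of the pair. Their median log2 difference was -0.18 at CT2, 0.02 at CT6, 0.23 at CT10, 0.29 at CT14, 0.15 at CT18 and -0.11 at CT22, where the medians of all probe sets stayed between -0.03 and 0.08. Members with a positive difference numbered 16, 26, 34, 34, 33 and 22 of 49 at these times. In the core the medians were -0.33, -0.13, 0.33, 0.46, 0.23 and -0.31, with 3, 6, 13, 14, 15 and 4 of 17 genes positive. The alpha subunits were positive in 7 of 7 at CT14 and at CT18, and in 1 of 7 at CT2 and at CT22. The base and lid had medians of -0.14, 0.05, 0.18, 0.08, 0.05 and 0.06. The fitted maximum of the light difference fell between CT8 and CT16 in 29 of 49 members (59.2%), in 14 of 17 core genes (82.4%) and in 41.5% of all probe sets. Each time rests on 1 pair of pools, so the members share its pool, array and scale, and these counts are a description of 6 pairs. The counts and the core medians include psmb8a, a member only through its light arrays. Its fitted maximum lay at CT8.7, and its light difference was positive at 5 of 6 times.

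**Figure D2:**
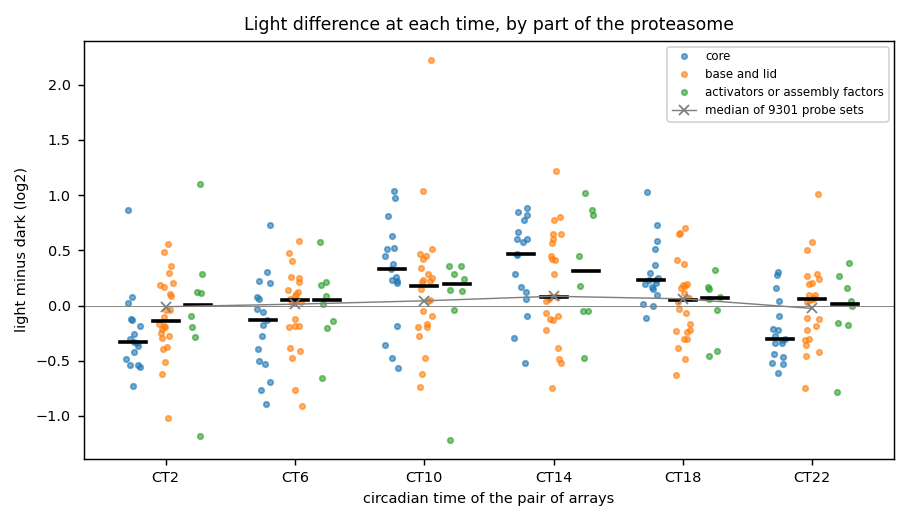
Light-minus-dark difference in log2(signal + 13) at each circadian time, 1 point per member probe set in its part of the proteasome, with black bars at the part's median and grey crosses at the median of the 9301 probe sets. Core medians lie at -0.33 and -0.31 at CT2 and CT22 and at 0.33, 0.46 and 0.23 at CT10, CT14 and CT18.

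The shape is shown here in psmb3 and psmb6, which were picked by their light-by-time term and so add no support to it. Not every core gene had it: psmb4 was lower in light at 6 of 6 times, and psmb8a was higher in light at CT2 (0.87). psmb3, a structural beta subunit, had signals of 446, 469, 608, 574, 538 and 412 in light, against 601, 443, 387, 329.9, 355 and 565 in dark. psmb6 had 347, 392, 476, 505, 451 and 381 in light, against 431, 400.3, 329, 275, 348 and 531 in dark. Light was highest at CT10 in psmb3 and at CT14 in psmb6, dark was lowest at CT14 in both, and at CT2 and CT22 light lay below dark. The light-by-time amplitude was 0.68 for psmb3 and 0.63 for psmb6 (adjusted p = 0.489 for each), with the fitted light difference highest at CT13.1 and CT13.0.

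psmd3 had the largest such amplitude, 1.23 ± 0.23 with the maximum at CT11.8 (adjusted p = 0.463). Fitted on each treatment alone, its 24 h amplitude was 0.19 ± 0.15 in light and 1.24 ± 0.17 in dark, with the dark peak at CT23.2. The dark fit missed the threshold (adjusted p = 0.0523), in a fit that called 0.215% of all probe sets, and the light fit had an adjusted p of 0.813, where 0.247% were called. No member was called in either fit. The amplitudes of psma8 were 0.23 in light and 0.53 in dark, those of psmb5 0.16 and 0.64, and those of psmf1 0.18 and 0.52, while psma4 had 0.37 in light and 0.12 in dark. These genes were picked by their light-by-time term, so that their curves differ between treatments is not a further result.

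Array quality and markers of other tissues also differed between times and treatments. The log2 gap between the 3' and 5' GAPDH probe sets was 4.32, 6.19, 6.35, 6.69, 5.14 and 4.73 on light CT2 to CT22. On the dark arrays of the same times it was 5.82, 5.41, 5.44, 5.84, 5.69 and 5.27. The 8 brain neuron markers had a mean log2 deviation from their own means of -0.03 and -0.16 on light CT14 and CT18, against 0.50 and 1.00 on dark CT14 and CT18, while at CT22 the order was turned, with 0.62 in light against -0.15 in dark. Over all 6 times their summed signal was 8511 to 17459 in light and 8598 to 17746 in dark. Of 9 tested skin markers, 6 were called for time of day and none for light. Their mean log2 deviations were -0.83, 0.36, 1.28, 0.41, 0.15 and -0.54 in light over CT2 to CT22, against -0.63, 0.43, 0.56, 0.54, -1.31 and -0.43 in dark, and their summed signal was 1509 to 9410.2 in light and 1094 to 6321 in dark. Of 11 skeletal muscle markers on the array, 6 lay below the signal filter. The 5 tested all had a positive light difference (median 0.54), and their summed signal was 619 to 1450.0 in light and 339 to 681 in dark. Of these acta1a, a skeletal muscle actin, was called in the paired fit without a spike-in term (1.30 ± 0.21, adjusted p = 0.00872). Its signals were weak, at 93.2 to 212 in light and 21.3 to 95.9 in dark. Of 8 tested red blood cell markers, 2 had a positive light difference. Among the 8, cahz was called lower in light in the paired fit without a spike-in term (-0.79 ± 0.16, adjusted p = 0.0285). The mean deviations of the 6 oligodendrocyte markers were -0.07 in light and 0.79 in dark at CT18, against 0.46 and -0.21 at CT22. No oligodendrocyte, glia or endothelium marker was called for light or time of day. The part of array quality and of these markers in the proteasome values was not tested.

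**Figure D3:**
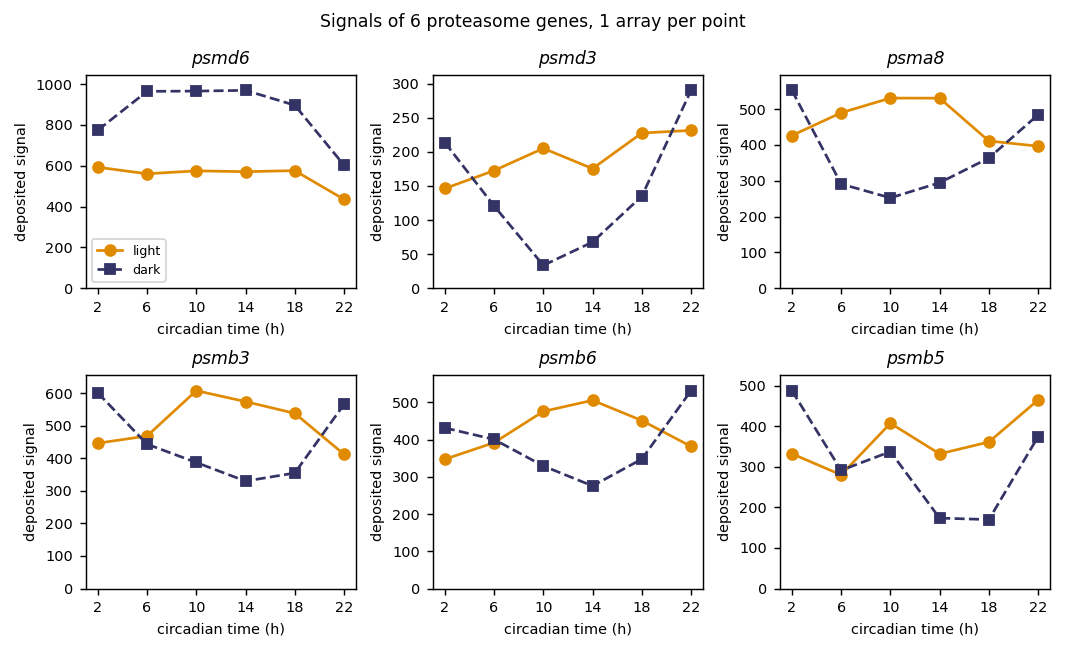
Deposited signal of psmd6, psmd3, psma8, psmb3, psmb6 and psmb5 (vertical axis, from 0) against circadian time in hours, with light pools as orange circles and dark pools as blue squares, 1 array per point. psmd6 is lower in light at every time, while in the other genes the curves cross, with dark above light at CT2.

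The third comparison asks for a time-of-day rhythm shared by both treatments. None of the 49 members was called by limma, where 1.98% of all probe sets were, and 1 of 49 (2.04%) had an unadjusted p under 0.05 beside 15.0% of all. That member was psmd3, with an amplitude of 0.63 ± 0.19 and a peak at CT22.6 (adjusted p = 0.200). The median amplitude was 0.15 for members and 0.20 over all probe sets.

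The fourth comparison set the light difference of the subjective night (CT14, CT18 and CT22) against that of the subjective day (CT2, CT6 and CT10). No member and 0.0% of all probe sets were called. In simulated data this fit recovered 0% of gaps of 1 log2, so the lack of calls cannot speak to gaps of that size. At an unadjusted p under 0.05, 1 of 49 members (2.04%) stood beside 3.18% of all. That member was psmb5, with a light difference of 0.74 in the night and -0.11 in the day, a gap of 0.85 ± 0.32 (not called).

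Members varied together only loosely. Across the 12 arrays the median correlation between members was 0.07 over 1176 pairs of probe sets, beside 0.00 over all probe sets, and it was 0.21 within the core and 0.34 among the alpha subunits, from probe sets that share arrays and scaling. Members above their own mean numbered 24, 23, 33, 35, 31 and 19 of 49 on the light arrays of CT2 to CT22, against 35, 29, 20, 14, 21 and 20 on the dark arrays. The highest count, 35, was that of light CT14 and of dark CT2, and the lowest that of dark CT14. Of all 9301 probe sets, 51.2, 53.1, 52.6, 55.3, 51.9 and 52.9% lay above their own mean on these light arrays. On the dark arrays the shares were 51.5, 51.6, 47.0, 45.4, 44.9 and 54.4%. Over all probe sets, too, light CT14 was the highest, and dark CT14 lay close to the lowest. The member counts include psmb8a, a member only through its light arrays.

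**Figure D4:**
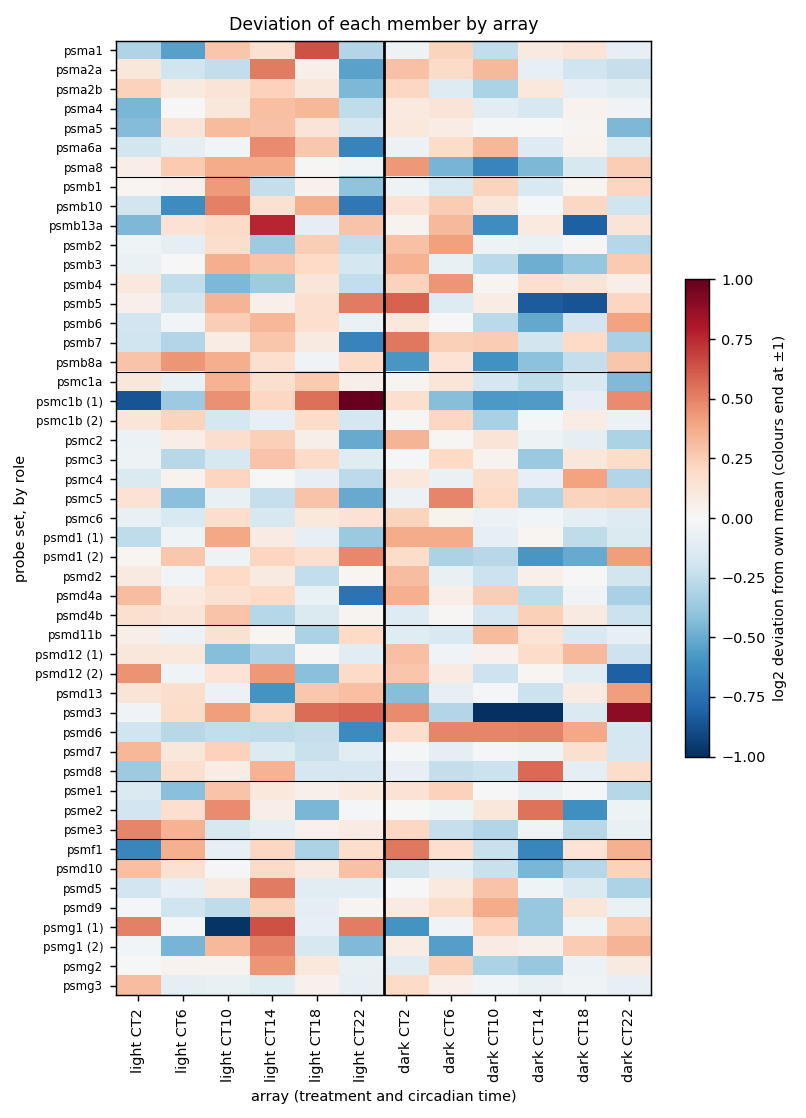
Deviation of each member from its own mean over 12 arrays in log2(signal + 13), light arrays left and dark arrays right, each in order of circadian time, with rows grouped by role and lines between roles. Above their mean are 35 of 49 members on light CT14 and 14 of 49 on dark CT14. Over all 9301 probe sets the shares were 55.3% and 45.4%. The psmd6 row is blue on the light arrays and on dark CT22.

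Other genes of the pathway were taken as lists. Of 12 tested proteasome partners without a psm symbol, 5 had a positive light difference and none was called in any comparison. They include ecpas, a scaffold that binds the proteasome (0.44 ± 0.14, higher in 6 of 6 pairs, adjusted p = 0.132), zfand5a, a proteasome-binding zinc finger protein (0.35 ± 0.13, adjusted p = 0.181), and txnl1, a thioredoxin-like protein that binds the proteasome (0.41 ± 0.22, adjusted p = 0.356). Of 31 tested ubiquitin and unfoldase genes, 13 were positive and none was called for light. The cullin cul5b, a ubiquitin ligase scaffold, had 278 to 350.4 in light and 157 to 289 in dark (0.58 ± 0.16, adjusted p = 0.0770). The ubiquitin-conjugating enzyme ube2d3 had -0.33 ± 0.12 (lower in 6 of 6 pairs, adjusted p = 0.203), and the cullin cul3a had 0.37 ± 0.17 (adjusted p = 0.287). The cullin cul1b was called for time of day, with an amplitude of 0.56 and a peak at CT10.1 (adjusted p = 0.0396). Of the skin markers called for time of day, krt5, krt91, icn2, cdh1 and cldni peaked at CT9.3 to CT11.4, and krt18a.1 at CT18.4. The part of skin in the cul1b values was not tested.

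Of 11 tested antigen-processing partners of the immunoproteasome, 7 were positive and 1 was called for light. It was tapbp.1, the tapasin that loads peptides on MHC class I, which was lower in light in the paired fit without a spike-in term. It had 103 to 217 in light and 143 to 363 in dark (-0.69 ± 0.15, lower in 6 of 6 pairs, adjusted p = 0.0366). The CT22 value of -0.88 rests on 1 pair. Fits of tapbp.1 with a spike-in term are not given. Over all probe sets such fits called 8 (level) and 3 (class, no pairing) in place of 215. The class I chain genes mhc1ufa and mhc1zba had -0.68 ± 0.30 and -0.36 ± 0.19 (adjusted p = 0.270 and 0.354). The gene cd74a, the MHC class II invariant chain and also a leukocyte marker here, was called for time of day with an amplitude of 0.62 and a peak at CT10.6 (adjusted p = 0.0487). That peak too lay near those of most called skin markers, and the part of skin or leukocytes in it was not tested.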

How the data were processed

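Total RNA of 12 pools of 12 glands was amplified in 2 rounds from an oligo(dT) primer and hybridised to 1-colour Affymetrix arrays, per the labels' protocols, so signals come mainly from 3' ends. The deposited table holds linear intensities, as MAS5 signals made in GCOS (versions not given in the sources used here), per the submitters' processing notes. On every array the mean without the outer 2% of values at each end was 200.04, so the authors had scaled the arrays, and they were not scaled again. Then log2(signal + 13) was taken, which understates changes of weak probe sets. Probe sets with a mean log2 value of at least 6.16 (a signal of 58.3) were kept, 9301 in number, including all 49 members. Two-sided limma tests (version 3.58.1, R 4.3.3; lmFit, then eBayes with a trend on signal) were adjusted over the 9301 probe sets by the Benjamini-Hochberg method at a threshold of 0.05. Light against dark had the time point as a block, which pairs the pools of 1 circadian time. Each treatment has 1 pool a time, so the times act as replicates. The other fits used cosine and sine terms, or night and day means of the paired differences. The number of arrays limits the precision. The code was checked on simulated data. Genes were named by a rule. It took members called and, in each role, the 3 largest light differences and 2 largest amplitudes. It also took the catalytic, inducible and activator subunits, psmf1, psmd6, genes with several probe sets, and members next to the signal threshold. Of each pathway list it took called genes and the 3 smallest p-values for light. The rule did not cover the marker lists. Of these, the pineal marker tph1a and the muscle marker actc1b were also called for time of day (limma adjusted p = 0.0424 and 0.0441). The other members given with values, among them psmb3, psma4 and the members tested by time, were chosen after their values were seen. The members and the gene lists were chosen with earlier results of these data known. Settings were changed 1 at a time, except that the fits with the spike-in class also had cosine and sine terms in place of the time-point block. No chromosome positions or sequences are given.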

Additional observations from a re-analysis of the deposited data

Results flagged for a closer look

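In 6 of the 98 groups of 6 arrays looked at, 1 for each member and treatment, a single array stood far from the other 5. Chance flags about 1 in 20 such groups. On the light CT22 array psmd6 had a signal of 435.28, against 561 to 593 on the other light arrays, the core subunit psma2b had 292.75 against 433 to 478, and the ubiquitin receptor psmd4a had 700.99 against 1129 to 1467. On the light CT14 array the core chaperone psmg2 had 216.09, against 148 to 169 on the other light arrays. On the dark CT22 array the core subunit psma5 had 116.82, against 162 to 177 on the other dark arrays. On the dark CT6 array the second probe set of the core chaperone psmg1 had 113.48, against 179 to 222 on the other dark arrays.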

How the results depend on the processing

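Each of the 4 comparisons was refitted under other settings, 16 for light against dark, 15 for time of day, 11 for the light response by time and 10 for night against day. With 6 pairs the precision is low. The median light difference of the members moved by less than the SD of its 6 per-time values in all 16 settings, between -0.14 (spike-in level) and 0.04. The number of members called for time of day, for the light response by time and for night against day was 0 in all settings run, which says nothing about stability where the fits have few degrees of freedom. The members called for light numbered 0 without the intensity trend, 0 with the spike-in level, 0 with the spike-in class in a fit without the time-point block, and 0 to 1 with 1 pair left out. The number was also 0 within the higher spike-in class, a fit chosen after seeing the data, whose dark arm is the CT22 array alone, so that it tests little. Without the time-point block (no replicate block) psmd6 was -0.62 with an adjusted p of 0.0456, all calls numbered 127 in place of 215, and no member's call changed. Members with an unadjusted p under 0.05 for the light response by time numbered 4 to 9 with 1 pair left out and 7 with the spike-in level, also chosen after seeing the data. Over all probe sets the light calls numbered 215, against 71 to 351 with 1 pair left out, 8 with the spike-in level and 3 with the spike-in class and no block. The time-of-day calls numbered 184, against 48 to 121 with 1 pair left out, 122 without the trend, 20 from dark arrays and 23 from light arrays. The smaller counts come from fits with fewer arrays or an added term, and their cause was not tested further.

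Several light differences that were not called changed sign, and the cause was not tested. With the spike-in class in the model and no block psmb6 was -0.36, psmd3 -0.094, psmb8a -0.12, psmb13a -0.16, psma8 -0.0048 and psme2 -0.27. In the same setting the first psmc1b probe set was -0.024, the second psmd1 probe set -0.10, psmg2 -0.023, psmb7 0.10, psma2a 0.058, psma1 0.058, psme1 0.28 and the first psmd12 probe set 0.28. With the spike-in level psmb6 was -0.52, psmd3 -0.28, psmb5 -0.14, psma8 -0.25, psmg2 -0.25, psma2b -0.12 and psmb13a -0.13. There the first psmc1b probe set was -0.021, the second psmd1 probe set -0.061, psme1 0.015 and the first psmd12 probe set 0.071. Within the higher class, where the values rest on 1 dark array and are no test of the light difference, psmb6 was -0.48, psmd3 -0.50, psma8 -0.30, psmb8a -0.16, psmb13a -0.20, psme2 -0.25, psmg2 -0.095 and psma2b -0.017. There the first psmc1b probe set was -0.13, the second psmd1 probe set -0.11, psma2a 0.059, psme1 0.26 and the first psmd12 probe set 0.26. With quantile normalization psme2 was -0.081. With 1 pair left out the second psmg1 probe set ranged from -0.19 to 0.054, psma6a from -0.21 to 0.013, the first psmd1 probe set from -0.21 to 0.012 and psmf1 from -0.30 to 0.11. In these fits psme2 ranged from -0.053 to 0.11, psme1 from -0.084 to 0.12 and psma1 from -0.13 to 0.13. Among the members named, psmd6, psmb4, psmb10, psmc1a, psmd10, psme3 and the second psmc1b probe set kept their sign in all 16 settings. The first psmg1 and second psmd12 probe sets kept it in the 15 settings run for them. A kept sign does not mean a kept size: psmd10 was 0.014 with the spike-in class and no block.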
